A study of Homo sapiens with 30 samples.

Results

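HCC1954 is an established human breast cancer cell line that carries the HER2 amplification, and its time course under BMP4 made up 6 of the 30 BMP4 arrays of the study. The 6 arrays were chosen by the line named in their labels, 1 array for each treatment time, and the times were 30 min and 1, 3, 6, 12 and 24 h. On every array the cells given recombinant human BMP4 were labelled with Cy5 and the cells given vehicle for the same time with Cy3, so each ratio in this text is BMP4 over vehicle on the log2 scale, where 1 is a 2-fold rise. Cells had been grown in 24-well plates and left to attach for 24 h before treatment. Triplicate wells were pooled before RNA extraction, so each time point is 1 pooled sample, with no dye swap and no second array. The other 24 arrays came from 4 further breast cancer lines treated in the same way, namely SK-BR-3, ZR-75-30, MDA-MB-361 and HCC1419.

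BMP4 is a secreted ligand of the TGF-beta superfamily. It binds pairs of type I and type II receptor kinases, which phosphorylate SMAD1, SMAD5 and SMAD9. These join SMAD4, enter the nucleus and act on target genes, of which the ID genes are the best known. ID proteins lack a DNA-binding domain and hold basic helix-loop-helix transcription factors in inactive pairs. The inhibitory SMADs, SMAD6 and SMAD7, are themselves induced by the pathway and turn it down. In breast epithelium, BMP signalling is known for effects on growth, migration and cell fate.

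Of 41000 probes on the array, 24991 were well above background in at least 1 colour on all 6 HCC1954 arrays and are called detected here. The late mean of a probe is the mean of its ratios over the 4 times from 3 h on, and the late change is that mean minus the ratio at 30 min. Both were tested with limma in 1 fit over all 30 arrays, with the spread taken over 15 residual degrees of freedom and p-values adjusted by Benjamini-Hochberg over all probes. SD over the 4 late arrays is a spread over time points, not over repeated treatments. The 30 min array stands alone in HCC1954 and was taken to vary like the late arrays. P-values therefore cover only the spread among these arrays.

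The 6 arrays lay on 3 slides. The 30 min and 1 h arrays shared the slide called A here, the 3 h, 6 h and 24 h arrays shared slide B, and the 12 h array was on slide C. Slides A and C belonged to 1 scan session and slide B to a later one, with sessions split by the month of the scan date. Over the detected probes, the ratios of the 3 slide B arrays correlated with each other at Pearson's r of 0.68 to 0.85, whereas the 12 h array correlated with them at 0.04 to 0.16 and with the 30 min array at 0.53. The pattern did not follow slide or scan session throughout. The 1 h array correlated at 0.23 with the 30 min array of its own slide. Its r was 0.0075 with the 12 h array of its session. With the slide B arrays of the other session it was 0.32 to 0.46. These are correlations across 24991 probes, which are not independent replicates. Time after treatment cannot be told apart from slide for the 3 h, 6 h and 24 h arrays. The 12 h array is the sole late array from the scan session of the 30 min array. It had the fewest probes well above background, 63.03% in Cy3 and 60.63% in Cy5, against 67.41% to 70.8% on the other arrays. What part this has in 12 h ratios near 0 was not tested. The difference of 12 h from 30 min is given for the held probes, ID4 and the called late changes.

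**Figure D1:**
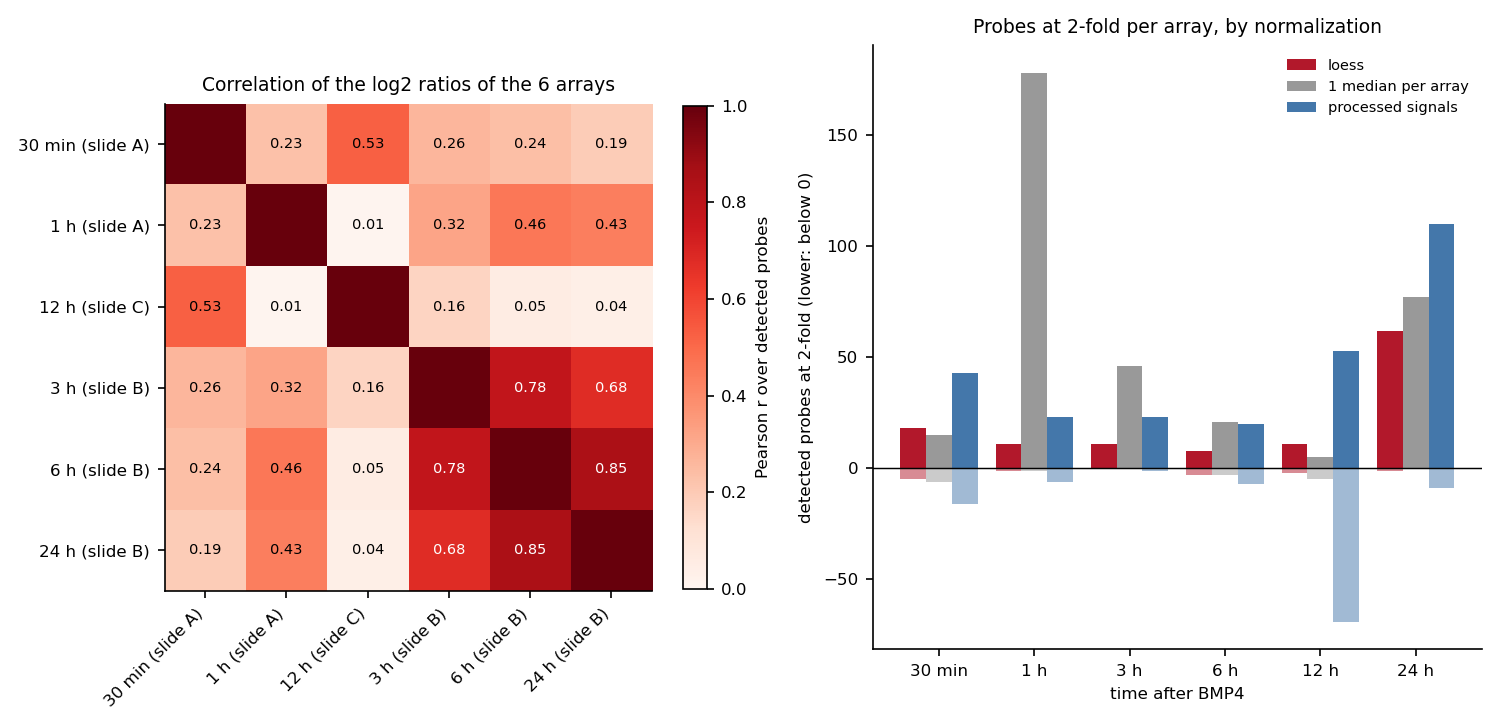
Left, Pearson's r between the log2 ratios of each pair of HCC1954 arrays over the 24991 detected probes, ordered by slide. Right, the number of detected probes at 2-fold or more on each array, higher ones above 0 and lower ones below 0, under 3 ways of scaling the array. The 3 h, 6 h and 24 h arrays form a block on slide B, and the 24 h array had the most probes 2-fold higher under loess (62) and under the processed signals (110), the 1 h array under 1 median per array (178).

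The labelled line was checked against markers in the vehicle channel. All 10 basal epithelial markers passed the background test on all 6 arrays, and 9 of them were higher in HCC1954 than in the other 4 lines. KRT5, a keratin of basal cells, had a vehicle level of 13.29 on the log2 scale in HCC1954 and 6.33 to 6.98 elsewhere. Among 12 luminal markers, 6 were lowest in HCC1954. KRT19 stood at 11.21 in HCC1954 and at 17.54 to 17.63 in the other lines. ERBB2 itself was at 17.17 in HCC1954 and at 15.88 to 17.52 elsewhere, which put HCC1954 4th among the lines. GRB7, STARD3 and MIEN1, its neighbours in the amplicon, were highest in this line, and PGAP3 was 2nd, below HCC1419. Of 11 stromal, endothelial and blood markers, 5 were well above background on all 6 arrays, while COL1A2, PDGFRB and PTPRC were on none. The 5 were PECAM1, CD68, CD3E, COL1A1 and VWF. Of these, PECAM1, CD68 and CD3E were highest in HCC1954, at 9.20, 8.76 and 8.03, whereas COL1A1 and VWF ranked 4th among the lines. PECAM1 was well above background on no array of the other lines. CDH5 was well above background on 5 of the 6 HCC1954 arrays.

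A 2-fold ratio held over 2 or more consecutive time points was found for 7 of the 24991 detected probes (0.028%), and all 7 were higher with BMP4. They were 1 probe of ID1, both probes of ID2, 1 probe of ID3, 2 overlapping probes of the homeobox gene DLX2, and 1 probe of an expressed sequence tag, CN479126. The count of held probes that were lower was 0. These probes were picked by their ratios, so their ratios are a description. The late-change values below come from the fit over the whole table.

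ID1 gave ratios of 0.39, 1.30, 1.76, 1.90, 1.49 and 1.40 at the 6 times in order, from 30 min to 24 h. It was already past 2-fold at 1 h and stayed there on every later array. The ID1 probe lies on chromosome 20 at 29657819 to 29657878 (hg18, plus strand). Its late mean was 1.64 ± 0.23 (SD, n = 4 time points), which is 3.11-fold. The late change was 1.25 ± 0.25 (SE, limma adjusted p = 0.183) and so did not pass, and the 12 h ratio alone was 1.098 above that at 30 min.

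ID2 was measured by 2 probes on chromosome 2. The probe whose alignment spans 8740093 to 8740481 gave 0.19, 0.95, 1.74, 1.54, 1.14 and 1.63 over the 6 times. The probe at 8741733 to 8741792 gave 0.16, 1.06, 2.25, 2.10, 1.18 and 2.23. In both the 12 h ratio was the lowest of the late values, and in both the 3 h, 6 h and 24 h arrays, which share a slide, lay above it. Their late means were 1.51 ± 0.26 and 1.94 ± 0.51 (SD, n = 4). The late change of the first was 1.32 ± 0.19 (SE, limma adjusted p = 0.0151), which passed, and that of the second was 1.78 ± 0.34 (limma adjusted p = 0.134), which did not. At 12 h they stood 0.95 and 1.02 above 30 min. The first lost its call with scan session as a block (1.08, limma adjusted p = 0.133) and without the 24 h array (limma adjusted p = 0.053). The second gained one without the 12 h array (limma adjusted p = 0.0044).

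ID3 went from 0.01 at 30 min to 0.68 at 1 h, then 1.43, 1.29, 1.26 and 1.32 at the late times. All 4 late ratios were close together, on both late slides. Its late mean was 1.32 ± 0.075 (SD, n = 4), or 2.5-fold. The late change was 1.31 ± 0.18 (SE, limma adjusted p = 0.00616), the smallest adjusted p among the ID genes, and 12 h alone was 1.24 above 30 min. With scan session as a block it was 1.22 and no longer passed (limma adjusted p = 0.0762). The probe lies on chromosome 1 at 23758253 to 23758312, minus strand.

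ID4 fell just outside the rule, since its ratio at 12 h was 0.9985 against a limit of 1. Its ratios were 0.09, 0.15, 0.88, 1.03, 1.00 and 1.20. Unlike the other ID genes it was still near 0 at 1 h. The late mean was 1.03 ± 0.13 (SD, n = 4), the late change 0.93 ± 0.20 (SE, limma adjusted p = 0.323), and the 12 h ratio was 0.90 above 30 min. The probe is on chromosome 6 at 19947489 to 19947548.

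DLX2, a homeobox transcription factor known as a BMP target in development, behaved differently at 12 h. The probe at 172672608 to 172672667 on chromosome 2 gave -0.10, 1.49, 1.31, 0.93, 0.10 and 1.15 over the 6 times. The second probe, at 172672586 to 172672645, overlaps it and gave 0.15, 1.11, 1.22, 0.84, 0.19 and 0.98. Both were near 0 at 12 h and raised on either side of it. At 12 h their vehicle levels were 7.16 and 7.29 and their BMP4 levels 7.26 and 7.48, and over the 6 arrays the vehicle levels were 6.82 to 8.18. Another DLX2 probe, not counted as detected, was well above background on 4 of the 6 arrays. It gave 1.16 at 3 h, -0.00 at 12 h and 0.86 at 24 h. A signal near background gives a ratio near 0, so this probe cannot back the low 12 h ratios. In the other 4 lines the 12 h ratios of the first probe were 0.75 to 1.30. The late mean of that probe was 0.87 ± 0.54 (SD, n = 4), and its 12 h ratio was 0.20 above 30 min. Since the 12 h array had a slide of its own, time and slide cannot be told apart for the low 12 h ratios.

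The tag CN479126 was at 0.19 and 0.07 at 30 min and 1 h and at 1.34, 1.26, 1.07 and 1.21 at the later times. It was near 0 at 1 h, when ID1 was already raised. Its probe lies at 29657031 to 29657090 on the minus strand of chromosome 20, close to the ID1 probe and on the other strand. The late mean was 1.22 ± 0.11 (SD, n = 4), the late change 1.03 ± 0.32 (SE, limma adjusted p = 0.974), and 12 h alone was 0.88 above 30 min.

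**Figure D2:**
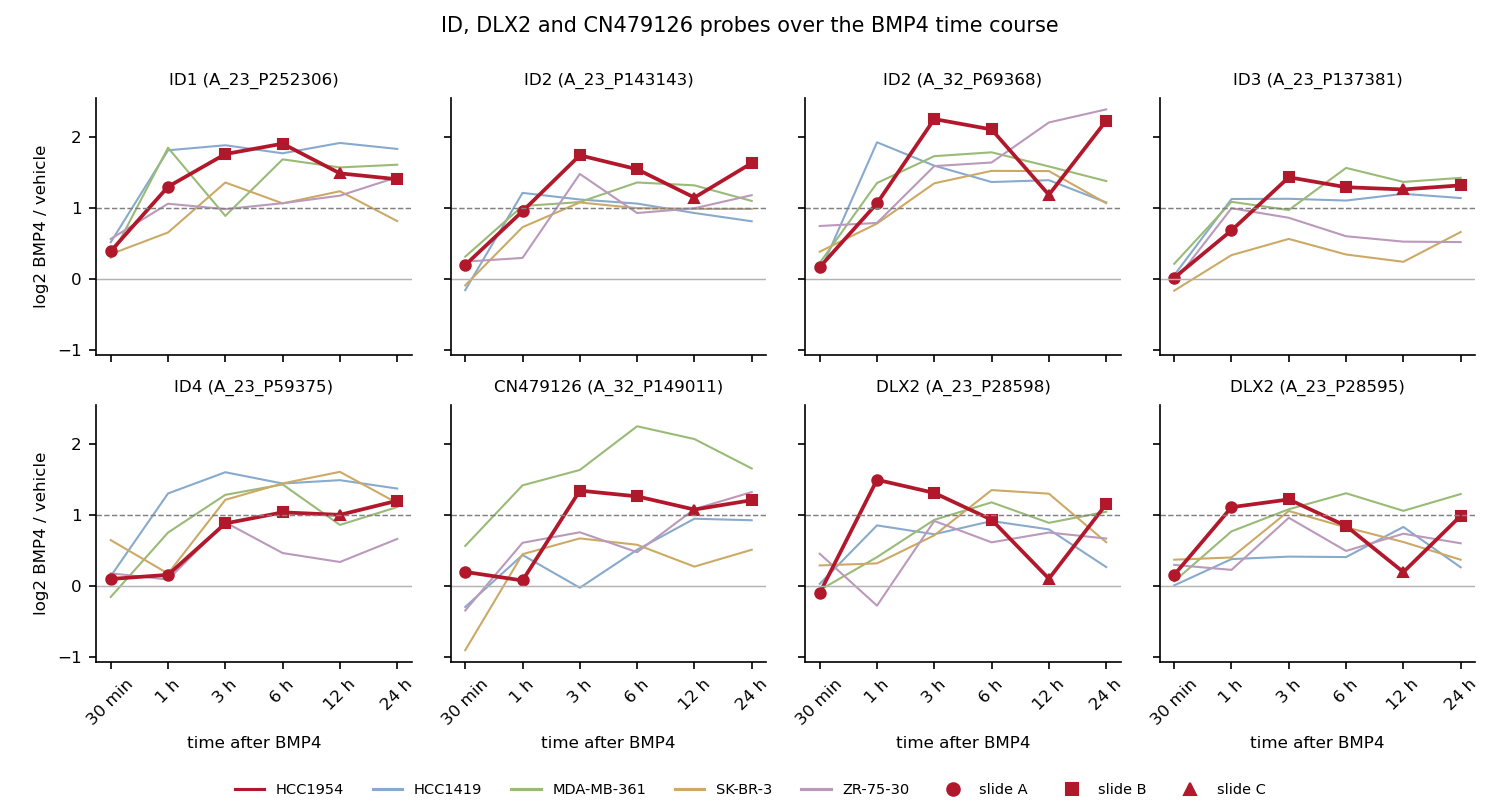
Log2 ratio of BMP4 over vehicle against time for the 7 held probes and ID4, 1 panel a probe, with HCC1954 in red, its marker showing the slide, and the other 4 lines as thin lines. The dashed line is 2-fold. ID1, ID2 and ID3 left 0 by 1 h, ID4 and CN479126 by 3 h, and DLX2 returned to 0.10 and 0.19 at 12 h.

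The 4 genes with a held probe were picked by the same 2-fold rule, and their promoters are shown. The sequences are the 250 bases before the start of each gene from RefSeq on GRCh38.p14, written in the direction of the gene. Capitals mark GTCT or its reverse complement AGAC, the short letters that SMAD proteins are known to contact. The windows are chr20:31605039-31605288 (plus strand), chr2:8681806-8682055 (plus), chr1:23559502-23559751 (minus) and chr2:172102901-172103150 (minus), in the order printed.
ID1: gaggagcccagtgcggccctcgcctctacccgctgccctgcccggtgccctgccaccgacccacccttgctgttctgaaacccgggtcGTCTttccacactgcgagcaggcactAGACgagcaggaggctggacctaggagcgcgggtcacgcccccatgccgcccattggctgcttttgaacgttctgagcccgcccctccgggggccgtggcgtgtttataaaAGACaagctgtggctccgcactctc
ID2: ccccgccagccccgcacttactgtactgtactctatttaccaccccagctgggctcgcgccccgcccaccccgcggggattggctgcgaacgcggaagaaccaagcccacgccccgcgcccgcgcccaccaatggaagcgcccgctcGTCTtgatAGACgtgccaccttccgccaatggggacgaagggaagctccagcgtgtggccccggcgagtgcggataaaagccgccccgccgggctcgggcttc
ID3: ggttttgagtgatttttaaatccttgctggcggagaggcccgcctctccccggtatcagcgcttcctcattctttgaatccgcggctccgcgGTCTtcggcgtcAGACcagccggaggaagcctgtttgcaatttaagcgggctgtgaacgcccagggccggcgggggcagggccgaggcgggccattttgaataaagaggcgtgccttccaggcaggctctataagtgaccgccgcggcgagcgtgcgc
DLX2: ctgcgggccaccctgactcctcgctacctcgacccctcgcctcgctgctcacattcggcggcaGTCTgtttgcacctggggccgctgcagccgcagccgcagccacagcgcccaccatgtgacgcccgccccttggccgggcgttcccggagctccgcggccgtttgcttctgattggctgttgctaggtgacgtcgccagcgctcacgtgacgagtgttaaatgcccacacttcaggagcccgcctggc
The ID1 window held 3 matches, the ID2 and ID3 windows 2 each and the DLX2 window 1. In ID2 and ID3 the 2 matches stood a few bases apart, in opposite orientation. Such short letters are common: 77.5% of 35116 promoters of this length held at least 1, with a mean of 1.55 matches. The longer BMP-type letters GGCGCC, searched on both strands, were in none of the 4 windows and in 16.4% of all promoters. A match is not evidence of a bound site.

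The vehicle channel showed that the untreated level of these genes also moved between arrays. For the first ID2 probe the vehicle level was 8.54 at 30 min, 10.92 at 1 h, and 8.86 to 9.39 at the 4 later times. The vehicle level of ID4 was 11.74 at 30 min, 13.86 at 1 h and 10.61 at 24 h, and that of ID3 was 9.36, 10.67 and 9.95. The 1 h array thus had the highest vehicle level of ID2, ID3 and ID4, and ID1 was also highest there at 15.09. The BMP4 channel was highest at 1 h too, at 16.39 for ID1, 11.87 for the first ID2 probe, 11.35 for ID3 and 14.01 for ID4. What part these levels have in the smaller ratios of ID2, ID3 and ID4 at 1 h was not tested.

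The ID response of HCC1954 did not pass a test of its difference from the other lines. The late mean of ID3 was 1.32 in HCC1954 against 0.45 in SK-BR-3, 0.62 in ZR-75-30, 1.14 in HCC1419 and 1.33 in MDA-MB-361. Against the mean of these lines the difference was 0.44 ± 0.088 (SE, limma adjusted p = 0.0775). For the first ID2 probe the lines gave 1.01, 1.14, 0.98 and 1.21 in the same order, a difference of 0.43 (limma adjusted p = 0.122). ID1 differed by 0.25 (limma adjusted p = 0.605) and ID4 by -0.12 (limma adjusted p = 0.83). None of the 7 held probes passed this test, and a p that misses the threshold does not show that the lines respond alike.

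The late change itself passed the test for 7 of 24991 detected probes that rose (0.028%) and for 0 that fell, against 615 higher and 298 lower at an unadjusted p under 0.05. ID2 and ID3 were 2 of the 7. The other 5 were CCDC93, a part of an endosomal sorting complex, RCSD1, which binds actin capping protein, the ubiquitin ligase UBE3D, the zinc finger gene ZC3H10, and C1orf144. In these 5 the 30 min ratio was the lowest of the 6, whereas the ID genes lay at 0.01 to 0.39 there. CCDC93 gave -1.39, 0.17, -0.05, 0.04, -0.10 and 0.13, so its late change of 1.40 ± 0.10 (SE, limma adjusted p = 7.87e-07) rested on the 30 min array, and 12 h was 1.29 above it. RCSD1 gave -0.86 at 30 min and -0.08 to 0.08 on the other arrays, with a late change of 0.89 ± 0.091 (limma adjusted p = 0.000157) and 12 h at 0.90 above 30 min.

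For UBE3D, C1orf144 and ZC3H10 the 30 min ratios were -0.58, -0.54 and -0.70 and the late means 0.27, 0.26 and -0.00. The late means of UBE3D and C1orf144 passed the test against 0 described below (limma adjusted p = 0.0301 and 0.0263), though their 12 h ratios were 0.03 and 0.08. At 12 h the 3 stood 0.61, 0.63 and 0.61 above 30 min. Each of the 5 was read from 1 spot an array. In the vehicle channel CCDC93 stood at 9.21 at 30 min and 7.57 to 8.21 on the other arrays, and C1orf144 at 13.46 against 11.55 to 12.37. UBE3D and ZC3H10 were also highest at 30 min in this channel, at 8.54 and 8.35. RCSD1 was not, with 8.58 at 30 min and 9.93 at 1 h, where its ratio was -0.07. For C1orf144 the BMP4 channel was highest at 30 min too, at 12.92. The part of the 30 min array in these calls was not tested. The change from 30 min to 1 h passed for 2 probes that rose (0.008%) and 0 that fell, with 496 and 296 at an unadjusted p under 0.05. They were CCDC93 at 1.56 (limma adjusted p = 1.26e-05) and RCSD1 at 0.79 (limma adjusted p = 0.0193).

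**Figure D3:**
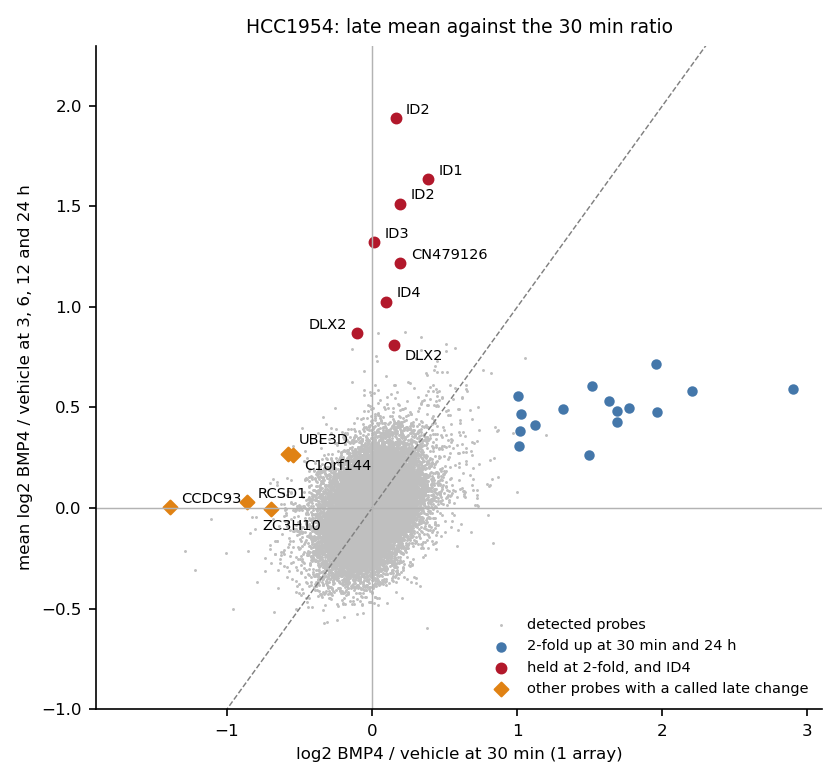
Late mean against the ratio at 30 min, both log2 of BMP4 over vehicle, for the 24991 detected probes, with equal values on the dashed line. The held probes and ID4 (red) lie near 0 at 30 min and high at the late times, 5 called probes (orange) lie at -1.39 to -0.54 at 30 min and have late means of -0.00 to 0.27, and 16 probes (blue) were past 2-fold at both 30 min and 24 h.

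The late mean against 0 uses no 30 min array and has less spread, but a bias between the dyes or slides enters it whole. By this measure 444 probes were higher (1.78%) and 372 lower (1.49%) with BMP4 by limma. The median of the higher ones was 0.35 and of the lower ones -0.31. The mean reached 2-fold for 6 of the higher probes, the ID1, ID2, ID3, ID4 and CN479126 probes, and for 0 of the lower ones. At 30 min, 371 of the 444 and 327 of the 372 had the sign of their late mean, with a median ratio of -0.007 over all detected probes. At 12 h 431 and 356 had that sign, but the 12 h ratio is part of that mean, so this is largely fixed by the selection. The late mean of the other lines had the same sign for 419 and 337. A dye bias common to all arrays and a response common to the lines cannot be told apart here. The count of calls hangs on the arrays, being 8, all higher, with scan session as a block. Without the 24 h array it was 54, without the 6 h 75, without the 3 h 148 and without the 12 h 1771. Genes of the lists that passed are therefore given with all 6 ratios, or with those at 30 min and 12 h beside the late mean.

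Among the genes of the BMP pathway, some inhibitors that the pathway induces were raised. Of 8 detected inhibitory SMADs and feedback genes 3 passed as higher and 0 as lower, with a list median of 0.27 against 0.0039 over all detected probes. Over all detected probes 1.78% passed as higher and 1.49% as lower. SMAD6 was at -0.00 and -0.02 at 30 min and 1 h and at 0.45, 0.46, 0.44 and 0.35 later, a late mean of 0.42 ± 0.05 (SD, n = 4, limma adjusted p = 0.0125). All 4 late values of SMAD6 were close together, 12 h included. SMAD7 gave 0.11, 0.68, 0.36, 0.49, 0.13 and 0.51 (limma adjusted p = 0.00493), with its highest ratio at 1 h. SKIL, a corepressor that binds SMADs, had a late mean of 0.49 ± 0.15 (limma adjusted p = 0.0205), with 0.21 at 30 min and 0.34 at 12 h. BAMBI, a decoy receptor, had a late mean of 0.37 that did not pass (limma adjusted p = 0.177).

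Among the 6 receptor SMADs and SMAD4, SMAD9 passed, with ratios of 0.02, -0.19, 0.38, 0.50, 0.08 and 0.79 and a late mean of 0.44 ± 0.29 (SD, n = 4, limma adjusted p = 0.0267). Its 12 h ratio lay near that at 30 min. SMAD1 had a late mean of 0.17 (limma adjusted p = 0.0766) and SMAD4 of 0.05. None of 10 detected BMP and TGF-beta receptors passed, and their late means ran from -0.12 to 0.20. With 1.78% of all detected probes higher and 1.49% lower, a list of 10 without a call is near the general share. The single calls in the lists of this paragraph are read against the same shares. Among 11 detected ligands of the family GDF15, a cytokine made under cell stress, passed as lower. It gave 0.38, -0.44, -0.64, -0.72, -0.17 and -0.86, a late mean of -0.60 ± 0.30 (SD, n = 4, limma adjusted p = 0.0243), the lowest of all detected probes. BMP4 itself had a late mean of -0.14, which did not pass. Of 6 detected antagonists, FST, which encodes follistatin, passed as lower with a late mean of -0.30 ± 0.20 (limma adjusted p = 0.0458), with -0.04 at 30 min and -0.31 at 12 h.

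Transcription factors known as BMP targets were mixed, with 4 of 21 detected members higher, 1 lower and a list median of 0.07, against 1.78% of all detected probes higher and 1.49% lower. DLX2 was one. JUNB, a subunit of the AP-1 factor, gave 0.51, 0.66, 0.66, 0.64, 1.06 and 0.76, raised on every array from 30 min on, with a late mean of 0.78 ± 0.20 (SD, n = 4, limma adjusted p = 0.000108). ATOH8, a helix-loop-helix factor, had -0.03 at 30 min and 0.23, 0.51, 0.18 and 1.13 at the late times (limma adjusted p = 0.0419), so 24 h led its mean. The homeobox gene MSX2 had a late mean of 0.38 ± 0.21 (limma adjusted p = 0.0341), with 0.08 at 30 min and 0.13 at 12 h. RUNX2 passed as lower at -0.23 ± 0.10 (limma adjusted p = 0.0316), from 0.17 at 30 min to -0.09 at 12 h. HEY1, a target of both Notch and BMP, had 0.37, 0.48, 0.11 and 0.81 at the late times and did not pass (limma adjusted p = 0.0799).

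Of 18 detected immediate early genes 2 were higher, JUNB and JUND, and 1 was lower, FOSL1, all 3 of them AP-1 subunits. Over all detected probes 1.78% were higher and 1.49% lower. JUND gave 0.38, 0.61, 0.54, 0.62, 0.25 and 0.64 (limma adjusted p = 0.00126). FOSL1 gave -0.11, 0.12, -0.43, -0.52, 0.03 and -0.90 (limma adjusted p = 0.0409). The lower FOSL1 ratios were thus from slide B, with 12 h near 0. The list median was -0.016, and MYC, with a late mean of -0.36, did not pass (limma adjusted p = 0.207).

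The phosphatases that switch off MAP kinases had a list median of -0.12, with 2 of 10 lower and 0 higher, beside 1.49% and 1.78% of all detected probes. DUSP5 gave 0.17, 0.07, -0.32, -0.26, -0.22 and -0.47, a late mean of -0.32 ± 0.11 (SD, n = 4, limma adjusted p = 0.0161). All 4 of its late ratios were below both early ones. DUSP4 had a late mean of -0.22 ± 0.08 (limma adjusted p = 0.0403), with -0.08 at 30 min and -0.13 at 12 h, and DUSP6 of -0.37 ± 0.14, which did not pass (limma adjusted p = 0.253). With 1 median per array in place of loess, which moved the median late change of all detected probes from 0.0048 to 0.105, the median late change of these phosphatases went from -0.11 to 0.05 and so changed sign. Of 8 detected ERBB receptors and ligands 1 passed, the EGFR ligand HBEGF, lower at -0.20 (limma adjusted p = 0.049), with -0.19 at 30 min already and -0.13 at 12 h. A single call in a list of this size is read against the 1.49% of all detected probes that were lower, here and for the lists that follow.

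Among 25 detected genes of mitosis and proliferation 0 passed by limma, higher or lower, near the general shares of 1.78% and 1.49%. Their late means ran from -0.33 to 0.23, with a median of -0.02. CDC20, which activates the anaphase-promoting complex, was the lowest of them at -0.33 ± 0.16 (limma adjusted p = 0.104), and MKI67 was at -0.03. In the list of 15 detected cell cycle inhibitors and D and E cyclins, RBL2, a relative of the retinoblastoma protein, passed as higher at 0.36 ± 0.07 (SD, n = 4, limma adjusted p = 0.0253), with 0.28 already at 30 min and 0.26 at 12 h, where 1.78% of all detected probes were higher. CDKN1A was at 0.23 and CDKN1B at 0.31, and neither passed. Of 13 detected genes of the epithelial-mesenchymal transition 1 passed, the tight junction gene CLDN1 at -0.27 ± 0.03 (limma adjusted p = 0.0459), from 0.20 at 30 min to -0.29 at 12 h, while CDH1 was at -0.07 and VIM at -0.28. The detected luminal and basal markers gave 0 calls of 11 and of 10, also near the share over all detected probes. Of 5 genes of the HER2 amplicon 1, PGAP3, was lower at -0.31 (limma adjusted p = 0.0181), with -0.17 at 30 min and -0.22 at 12 h.

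**Figure D4:**
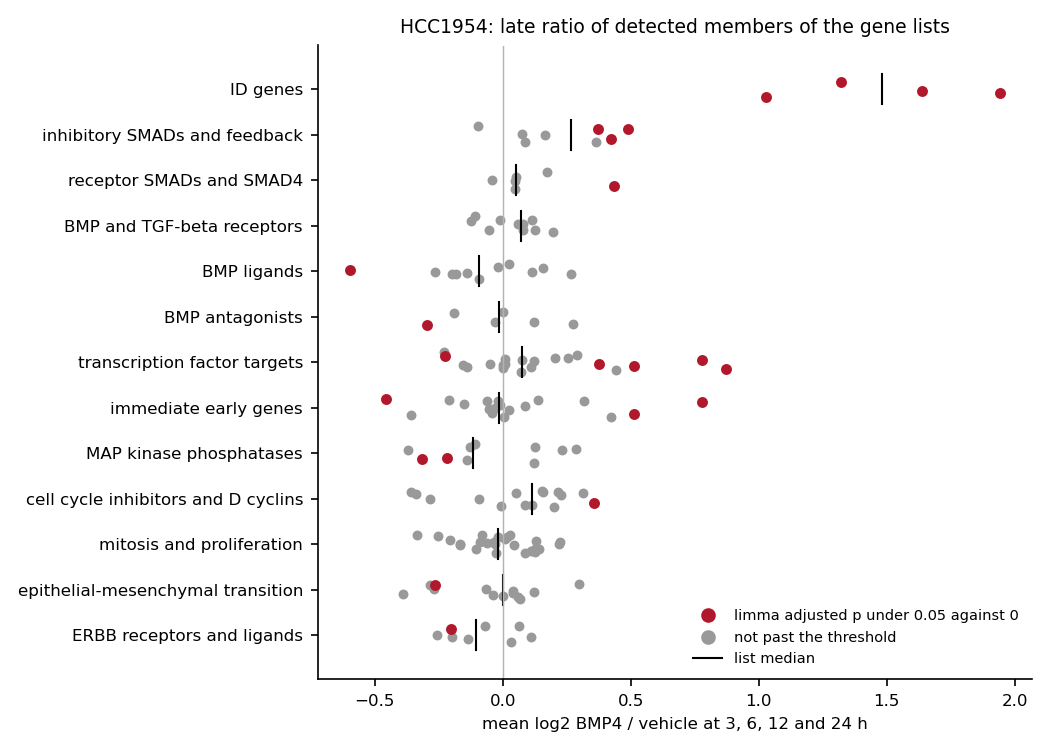
Late mean of each detected member of 13 gene lists, as log2 of BMP4 over vehicle, with 1 point a gene, red where the late mean passed limma's test against 0 and a bar at the list's median. The 4 ID genes stand apart from the other lists, whose members lay mostly between -0.6 and 0.9.

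Outside the pathway lists, genes with large late means were named after their values were seen. EDN2, the vasoactive peptide endothelin 2, gave 0.33, 0.24, 0.54, 0.61, 0.96 and 1.29, the highest ratios being at the last 2 times (late mean 0.85 ± 0.34, SD, n = 4, limma adjusted p = 0.00702). SAMD11 gave -0.14, 0.05, 0.71, 0.75, 0.25 and 1.45 (limma adjusted p = 0.0047). Both belong to a list of 9 detected genes that the study had ranked on these samples, so their direction is not independent evidence. Of the 9, 3 passed, all higher, against 1.78% higher over all detected probes. KITLG, the ligand of the KIT receptor, had a late mean of 0.80 ± 0.27 (limma adjusted p = 0.00229), with 0.85, 0.93, 0.40 and 1.01 at the late times and 0.57 already at 30 min. ELF5, a factor of the milk-secreting lineage, gave 0.30, 0.96, 0.80, 0.68, 0.85 and 0.64 (limma adjusted p = 0.00287), without a drop at 12 h. Among the lower genes after GDF15 were the glycolytic enzyme ENO1 at -0.57, the ephrin receptor EPHB4 at -0.56, the kinase PLK3 at -0.48 and the chemokine CCL2 at -0.48. For EPHB4 the 12 h ratio was -0.18 and the slide B ratios were -0.53, -0.72 and -0.80.

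Among the probes whose late mean passed a test of HCC1954 against the other lines, those with the greatest differences had higher late means in every other line. In a comparison added after the data had been seen, the late mean of HCC1954 was set against the mean of the other 4 lines in the same fit, so that a dye bias common to all arrays drops out. It passed for 2 probes that were higher in HCC1954 (0.008%) and 17 that were lower (0.068%). Greater differences that did not pass existed in the other direction too, such as LY6G5C at 0.93 above the other lines (limma adjusted p = 0.436). The late change compared in this way passed for 5 higher (0.02%) and 0 lower, with 659 and 572 at an unadjusted p under 0.05, and those 5 were CCDC93, RCSD1, UBE3D, C1orf144 and LOC158345. These are low at 30 min in HCC1954.

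GPER1, a membrane receptor for estrogen, gave -0.21, 0.07, 0.14, 0.35, -0.01 and 0.38 in HCC1954. The other lines had late means of 1.54 (SK-BR-3), 1.00 (ZR-75-30), 1.64 (HCC1419) and 1.53 (MDA-MB-361). HCC1954, at 0.21 ± 0.18 (SD, n = 4), was below all of them, a difference of -1.21 ± 0.19 (SE, limma adjusted p = 0.0199). The GPER1 vehicle level was also the lowest of the 5 lines, 7.47 in HCC1954 against 8.13 to 14.01. DUSP2, a phosphatase of ERK, gave 0.05, 0.46, 0.14, 0.04, 0.03 and 0.30, while the other lines had late means of 0.84, 0.92, 1.21 and 2.02 in that order. Its highest HCC1954 ratio was at 1 h, and the difference was -1.12 ± 0.16 (SE, limma adjusted p = 0.00846). DUSP2 vehicle levels were 7.32 in HCC1954 and 7.70 to 8.63 elsewhere. GPER1, DUSP2 and, below, MAP3K5 belong to the study's ranked list. It was drawn up from these same arrays, so their rises in the other lines are not independent evidence.

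MAP3K5, the stress kinase ASK1, was raised in HCC1954 but less, with 0.14, 0.24, 0.42, 0.58, 0.21 and 0.71 over the 6 times. Its late mean of 0.48 ± 0.22 (SD, n = 4) compared with 0.79 to 1.55 in the others, a difference of -0.71 ± 0.12 (SE, limma adjusted p = 0.0307). At 11.10 its vehicle level in HCC1954 lay within the range of the others, 9.29 to 11.13. The transcription factor GATA2 had late ratios of -0.06 to 0.19 in HCC1954, and late means of 0.22 in SK-BR-3, 0.49 in ZR-75-30, 1.29 in HCC1419 and 1.00 in MDA-MB-361 (difference -0.68, limma adjusted p = 0.0223). GATA2 thus rose least in SK-BR-3 among the others. Both probes of MTERF4, a factor of mitochondrial ribosome assembly, were lower than in all 4 other lines, with late means of 0.24 and -0.01 against 0.59 to 1.43 and 0.62 to 1.25. CDC42EP3, an effector of the small GTPase CDC42, was at 0.11 against 0.50 to 0.75. HOXB9, UCK1, ZDHHC23 and PASK had differences of -0.58 to -0.42, with 2 of the other lines at 0.5 or more. In SK-BR-3 and ZR-75-30, ZDHHC23 was at -0.10 and 0.05, UCK1 at 0.03 and -0.03 and PASK at 0.19 and 0.07. Their late means in HCC1954 were -0.11, -0.22 and -0.07. HOXB9 was at -0.03 in HCC1954, 0.34 in HCC1419 and -0.01 in SK-BR-3, where no array was well above background for it.

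For the remaining called genes the late mean lay farther from 0 in HCC1954 than in each of the other lines. KLK5, a secreted serine protease, gave -0.38, -0.01, -0.51, -0.43, -0.24 and -0.45 and a difference of -0.38 (limma adjusted p = 0.0077). KLK6, of the same family, the adhesion molecule ICAM1, the NF-kappaB inhibitor TNFAIP3, the membrane linker MSN and the prostaglandin synthase PTGES had late means of -0.41 to -0.29. Some of these were low from the start, with MSN at -0.41 and -0.47 at 30 min and 1 h, below all of its late ratios of -0.38 to -0.24, and KLK6 at -0.26 at 30 min. FZD10, a Wnt receptor, and the potassium channel KCNJ15 were higher, with late means of 0.45 and 0.37 and 12 h ratios of 0.07 and 0.11. These probes were seldom well above background in the other lines, on 0 of 24 arrays for FZD10 and KCNJ15, 1 for KLK6 and MSN, 3 for TNFAIP3, 9 for KLK5, 10 for PTGES and 11 for ICAM1. On arrays where a probe was not well above background, a ratio near 0 is that of a signal near background. PTGES in SK-BR-3 was well above background on all 6 arrays, with a late mean of 0.0013. ICAM1 was so on 5 arrays of SK-BR-3 and 6 of ZR-75-30, with late means of -0.22 and -0.15. By contrast DUSP2, GPER1, MAP3K5, GATA2, CDC42EP3 and both MTERF4 probes were well above background on all 24. In HCC1954 the vehicle levels of GATA2 (7.88) and both MTERF4 probes (10.61 and 8.49) were the lowest of the 5 lines, like those of GPER1 and DUSP2. That of CDC42EP3 (11.26) was the highest. What part the level of a probe has in its ratios was not tested. All 19 lost their call with scan session as a block, and again without the 6 h or without the 24 h array of HCC1954.

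**Figure D5:**
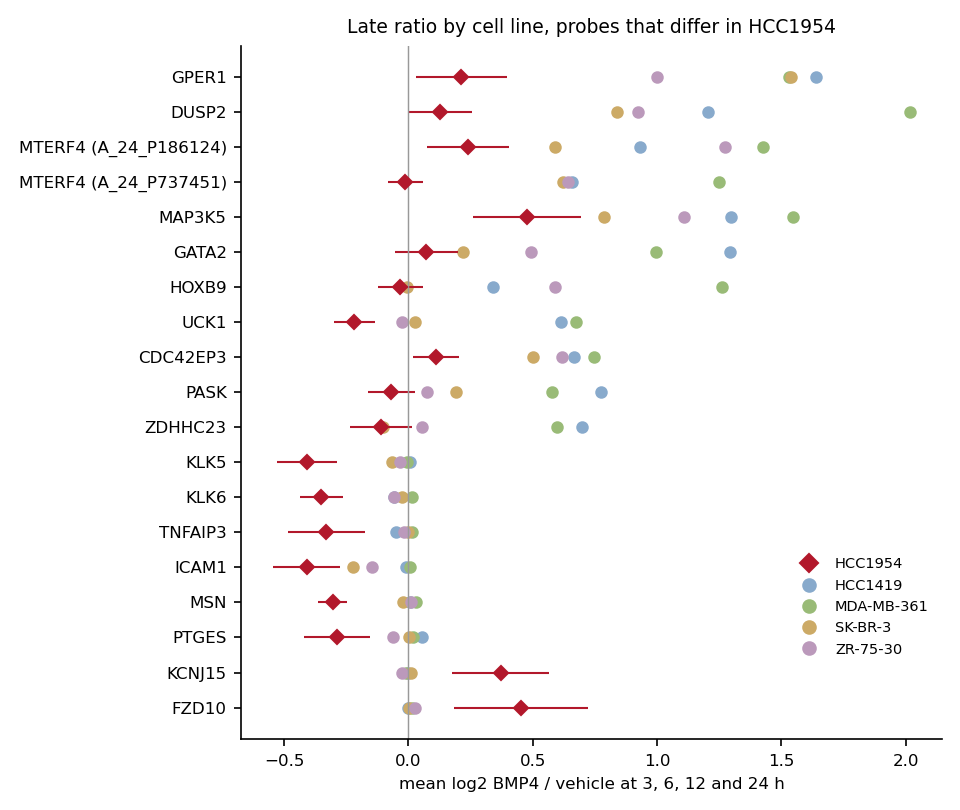
Late mean log2 ratio of BMP4 over vehicle by cell line for the probes whose late mean in HCC1954 differed from that of the other lines, with HCC1954 as a diamond with its SD over the 4 late time points. GPER1 and DUSP2 lie above 0.8 in every other line and at 0.21 and 0.13 in HCC1954, whereas KLK5, ICAM1 and FZD10 lie farthest from 0 in HCC1954.

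Counted one array at a time, 92 detected probes (0.368%) reached 2-fold in either direction on at least 1 HCC1954 array. Of these 64 did so on 1 array, 22 on 2 and 6 on 3 or more. The numbers higher were 18, 11, 11, 8, 11 and 62 over the 6 times, and the numbers lower 5, 1, 0, 3, 2 and 1. Of the 62 at 24 h, 36 were past 2-fold at no other time, 5 were past it at 12 h and 32 were below 0 at 3 h. A group of 16 was past 2-fold at 30 min and again at 24 h and below it at the 4 times between, among them the Wnt inhibitor WIF1 and the glycolytic regulator PFKFB3. The medians of these 16 were 1.57, 0.34, -0.34, 0.12, 0.26 and 1.94 in HCC1954. In ZR-75-30 they were 0.99 at 30 min and -1.84 at 12 h, and in SK-BR-3 0.87 at 30 min, 1.26 at 1 h and 0.12 at 24 h. MDA-MB-361 had -0.30 at 30 min and 0.60 at 24 h, and HCC1419 0.01 and -0.00. The 16 were chosen by these ratios, so no test is given.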

How the data were processed

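RNA of BMP4-treated (Cy5) and vehicle-treated (Cy3) cells was hybridised to Agilent 44K two-colour arrays by the authors, scanned, and read with Feature Extraction (version 9.5.1.1 per the file headers). Spot and background intensity were taken as deposited, and the deposited log10 ratios of the processed signals and the deposited log2 values of the series, which the authors had normalised linearly, served as alternatives. Scale and direction of those log2 values were found by setting it against the scanner values, with HCC1954 column medians of -0.07 to 0.00 over the detected probes, and the centring each column received is not known. Background was corrected here by normexp with an offset of 50, then ratios by loess within each array (control spots weighted 0), in limma 3.58.1 under R 4.3.3, with files read by data.table (version 1.17.8). Spots flagged as outliers were left out and spots of 1 probe averaged, and a missing ratio was not imputed. Channel levels are after loess and Aquantile scaling.

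The fit had, for each line, a coefficient for 30 min, 1 h and the late times. Genes carry the files' names, brought to current symbols for 26713 probes. In a gene list each gene has its brightest detected probe. Probe coordinates are hg18 per the file headers. The genes named are ID1 to ID4, the held genes, the called late changes and differences from other lines, the detected genes of the study's ranked list and at most 4 detected members of each other list with the largest late change. Further genes were named after their values were seen. Members and lists were chosen with earlier results of these data known. With 1 array a time point, the arrays set the precision. The fit was tested on simulated data. Alternatives covered background, scaling, filters, array weights, slide, scan session and time points as blocks, left-out arrays and lines, and other thresholds.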

Additional observations from a re-analysis of the deposited data

Results flagged for a closer look

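At 30 min, 5 of 68 named probes had a ratio far from those of the other 5 HCC1954 arrays. They were CCDC93 (-1.39), RCSD1 (-0.86), ZC3H10 (-0.70), LOC158345 (-0.59) and C1orf144 (-0.54), and all 5 fell on this 1 array. Chance marks about 1 probe in 20 by this measure, but these 5 were named through calls that use the 30 min ratio. For LOC158345 the call was the difference of its late change from the other lines, and for the rest the late change itself. Their number therefore depends on that choice, and the part of the 30 min array was not tested.

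The late change of HCC1954 was above the mean of the other 4 lines by limma for CCDC93 (1.47), UBE3D (1.01), C1orf144 (0.87), RCSD1 (0.84) and LOC158345 (0.71). Their late means in HCC1954 lay between -0.02 and 0.27.

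The late mean of HCC1954 was below the mean over the other lines for 17 probes. The greatest differences were GPER1 (-1.21), DUSP2 (-1.12), both MTERF4 probes (-0.82 and -0.80), MAP3K5 (-0.71), GATA2 (-0.68), HOXB9 (-0.58), UCK1 (-0.54) and CDC42EP3 (-0.52). The others were PASK (-0.47), ZDHHC23 (-0.42), KLK5 (-0.38), KLK6 (-0.32), TNFAIP3 (-0.32), ICAM1 (-0.32), MSN (-0.31) and PTGES (-0.29). HCC1954 was above the mean over the other lines for FZD10 (0.44) and KCNJ15 (0.38).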

How the results depend on the processing

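Counts of calls depended on the arrays and the scaling, while the late rise of the ID genes kept its direction in every setting run. ID3 and the first ID2 probe lost their late-change call with 1 median per array and with scan session as a block. They also lost it with the 6 HCC1954 arrays alone (ID3 limma adjusted p = 0.0808). With 12 h alone, which leaves 1 late array, their rises over 30 min were 1.24 and 0.95. No dye swap was made, so dye and treatment cannot be told apart in a ratio against 0. Signal near background limits ratios of dim probes.

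The 7 late-change calls became 22 with the processed signals, 1 with 1 median per array and 48 with array weights. They became 0 with the 6 HCC1954 arrays alone, 2 with scan session as a block, 4 without HCC1419 and 4 without SK-BR-3. With the mean of 30 min and 1 h as baseline they became 3. Without single arrays there were 3 (without 24 h) to 11 (without 12 h), with 4 without 3 h and 4 without 6 h. The 816 calls of the late mean became 1260 without background subtraction, 455 with the processed signals and 206 with the series table. They became 11 with 1 median per array, 7730 with array weights and 1354 with the 6 arrays alone. Further settings gave 8 with scan session as a block, 2021 with slide as a random block, 418 without HCC1419 and 1830 without ZR-75-30. Without single arrays the count was 54 to 1771. With 12 h alone 1 late array is left in HCC1954, so no count is given. The 2 early calls became 9 (processed signals), 1 (series table) and 1 (1 median). For none of these was the cause tested.

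The 5 late changes that differed from other lines became 16 (processed signals), 2 (series table), 1 (1 median) and 27 (array weights). They became 2 (scan session), 3 without MDA-MB-361, 2 without SK-BR-3, 3 without ZR-75-30 and 1 (baseline of 30 min and 1 h). With all probes they became 9, and without single arrays 2 to 6. The 19 late means that differed became 59 (no background subtraction), 11 (series table), 1 (1 median) and 2488 (array weights). They became 0 (scan session), 122 (slide as a random block), 7 without HCC1419 and 3 without MDA-MB-361. Without SK-BR-3 there were 40, without ZR-75-30 186, and without single arrays 0 to 155. The 7 held probes became 23 (processed signals), 24 (series table, all 7 among them), 33 (1 median), 73 at 1.5-fold and 2 at 3-fold, and 5 to 10 without single arrays. The 133 array calls at 2-fold became 380, 402 and 357 with the processed signals, the series table and 1 median. The 1 late-change call in the lists, ID3, became 0 with 1 median, 3 with the series table and 2 over all detected probes.

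Time points are numbered alike in all lines, but the arrays of 1 time point share only that number. With time point as a replicate block the late change had 6 calls, the late mean 530 and the difference of late changes 3.

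Among 68 named probes, the late change of 16 turned sign under some setting. None of these had passed the test, and their values had run from -0.35 (FOSL1) to 0.47 (CCN1). With 12 h alone these were DUSP2 (-0.0208), DNER (0.0021), TGFBR2 (0.016), TGFB1 (0.0076), TWSG1 (-0.0017), FOSL1 (0.1379), DUSP16 (-0.029), RB1 (-0.1333), CDKN2A (0.0022), BUB1B (0.0815), EGFR (-0.0802) and ERBB3 (0.0607). With the mean of 30 min and 1 h as baseline they were DUSP2 (-0.1245), CCN1 (-0.0216) and RRM2 (-0.0518). DNER turned with scan session as a block (0.0248), ZFP41 with the series table (-0.0169) and DUSP4 with 1 median per array (0.0498). The comparison of late means between lines and the setting with 12 h alone were chosen after seeing the data.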

Other observations

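Some genes had low ratios on single HCC1954 arrays and were picked for these values, so no test is given. IFIT1, which binds foreign RNA, gave -0.74, -0.13, 0.42, -1.40, -0.54 and 0.26 over the 6 times. IFI44L gave -0.70, -0.21, 0.43, -1.65, -0.19 and 0.30, and IFIT3 -0.68, -0.33, -0.12, -1.41, -0.28 and -0.25. In all 3 the 6 h and 30 min ratios were the lowest, on different slides, while on the other arrays they differed, with IFIT1 at 0.42 and IFIT3 at -0.12 at 3 h. MX1, like them induced by interferon, lay between 0 and 0.22 on every array. ISG15, a ubiquitin-like protein, gave -0.80 at 6 h.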
